A study of Homo sapiens with 18 samples.

Results

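Neuroendocrine cells and neurons store hormones or transmitters in vesicles and release them when the vesicle fuses with the plasma membrane, and pathologists stain for proteins of this machinery to recognise such cells. The 10 genes described here encode parts of it or other neuroendocrine and synaptic markers. They were found by symbol among the 58870 genes of the deposited table. They are SYP, CHGA, CHGB, ENO2, SCG2, NCAM1, SNAP25, STX1A, CLSTN3 and GNAO1. RNA was sequenced from NCI-H295R cells, a line from a single human adrenocortical carcinoma that is used as a model of steroid-producing cortex. Cells were sampled after 48 h with STA9090+PIK75, with STA9090+BGT226, with STA9090, with PIK75 or with BGT226, or were left untreated, with 3 biological replicates in each of the 6 groups. STA9090 (ganetespib) inhibits the chaperone HSP90, PIK75 inhibits phosphoinositide 3-kinase (PI3K) with most activity on its alpha form, and BGT226 inhibits both PI3K and mTOR. The stated dose was 20 nM. The vehicle and the dose of each agent within a pair are not stated in the sources used here, so added vehicle or a changed dose cannot be told apart from the pairing itself.

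The members were selected on results from the same libraries. In those results the conventional markers as a list, and GNAO1 as a single gene, had negative log2 fold changes with STA9090 alone, and CLSTN3 recurred among genes that changed. Values of STA9090 against untreated are therefore given for all members as a description with no test, and CLSTN3 and GNAO1 are described with no test in every comparison. The 8 other members are conventional markers, of which 7 had enough counts to test. SCG2, the eighth, did not pass the filter on low counts, so 9 of the 10 members have fitted values. The 5 comparisons with untreated cells share the 3 untreated libraries, and the comparisons of a pair with STA9090 and both interactions reuse the STA9090 libraries on which the list was brought forward. The untreated libraries are the other side of that contrast. The choice of the list therefore favours falls from untreated cells as well as rises over STA9090, and p-values of such changes are too favourable.

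In endocrine cells the vesicles are large dense-core granules. Chromogranins and secretogranins (CHGA, CHGB, SCG2) are their soluble cargo, synaptophysin (SYP) spans the membrane of small clear vesicles, and the SNARE proteins SNAP25 and STX1A on the plasma membrane pair with a vesicle SNARE to drive fusion. NCAM1 and CLSTN3 are adhesion molecules of the cell surface, GNAO1 is the Go alpha subunit through which receptors restrain calcium channels and release, and ENO2 is the neuronal form of the glycolytic enzyme enolase. Adrenal medulla chromaffin cells carry all of these systems, and synaptophysin and NCAM1 are also known from tumours of the adrenal cortex, where they do not mark medullary origin.

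Library totals ran from 10.2 to 21.1 M counts. The line carried its cortical identity, with NR5A1, the nuclear receptor that defines steroidogenic cells, at 586 ± 66.4 CPM in untreated cells (counts scaled to 1 M and by TMM, SD, n = 3). The chromaffin genes TH, PHOX2A and SLC18A1, which mark the adrenal medulla, had no count in any library, while GATA2, GATA3 and CHRNA3 of the same list of 12 were measured and the list summed to 17.6 to 20.6 CPM in untreated cells. Fewer cells of a type and less RNA per cell cannot be told apart in bulk RNA. Transcripts of RNA polymerase III made up 38.0 ± 2.26% of counts with STA9090+PIK75 and 32.3 ± 4.70% in untreated cells, the highest and the lowest group mean.

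Per kilobase of summed exon, the members of untreated cells fell into tiers. NCAM1 stood at 8.84 ± 0.669 CPM per kb, CLSTN3 at 8.43 ± 0.266 and SYP at 8.14 ± 0.587, levels that overlapped. GNAO1 followed at 2.39 ± 0.122 CPM per kb. STX1A (0.860 ± 0.144), ENO2 (0.769 ± 0.159), SNAP25 (0.639 ± 0.0496) and CHGB (0.562 ± 0.0378) lay within a narrow band below it, and CHGA was lower again at 0.311 ± 0.0704 CPM per kb. SCG2 was at 0.00928 CPM per kb. The surface and vesicle membrane members were thus well measured, while the granule cargo and SNARE members rested on few reads. CHGA had 6 to 31 counts per library, SNAP25 7 to 37, CHGB 17 to 86, STX1A 28 to 102 and ENO2 30 to 66.

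**Figure D1:**
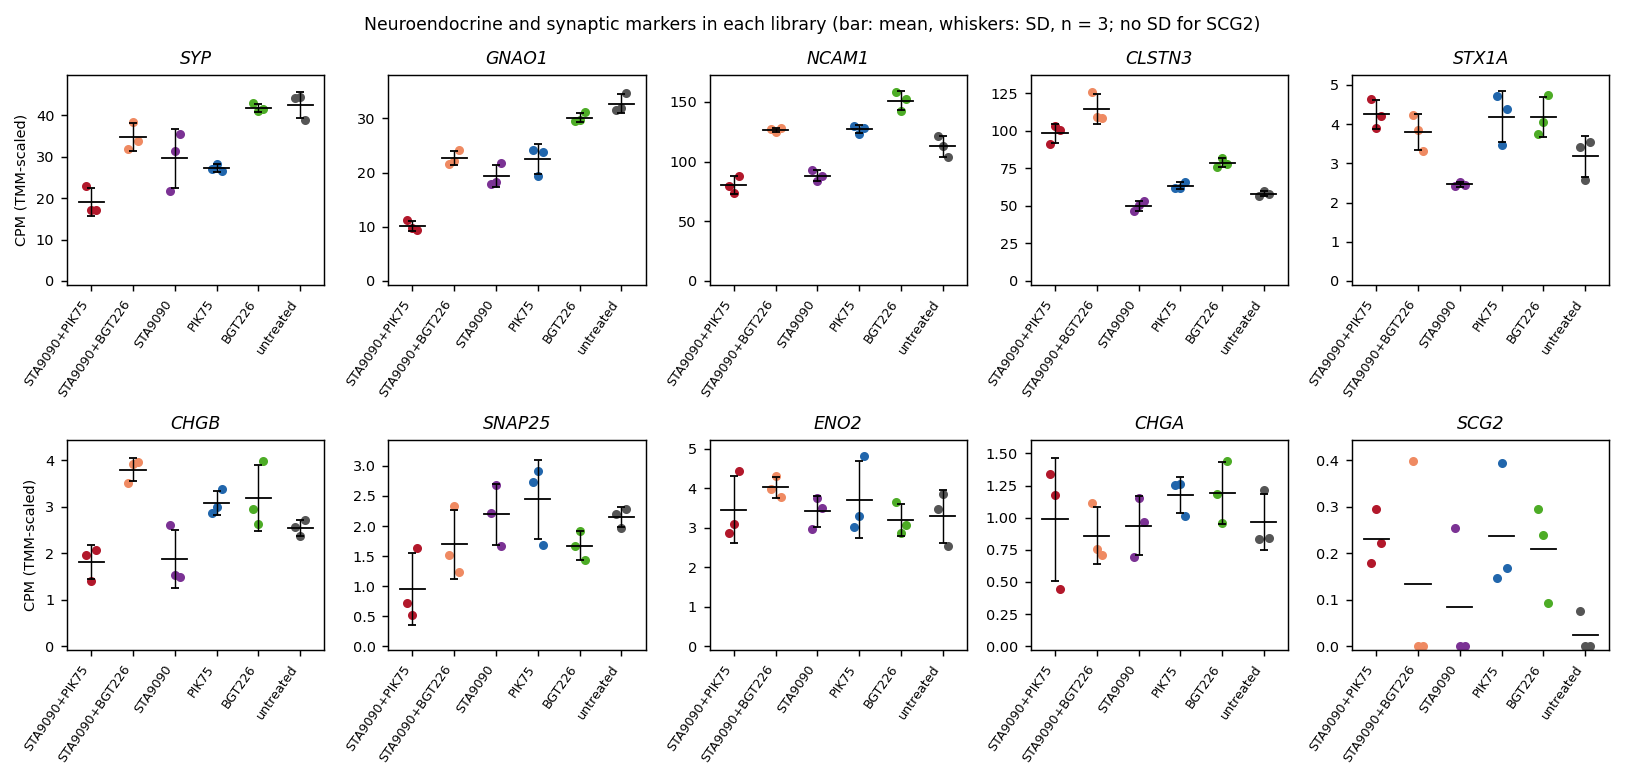
Expression of the 10 members in each library, as TMM-scaled CPM on a linear axis that starts near 0, by group, with a bar for the mean and whiskers for the SD of 3 replicates (SCG2 without SD). SYP and GNAO1 are lowest with STA9090+PIK75, CLSTN3 is highest with the pairs, and CHGA overlaps between the groups compared.

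The promoters of 3 members, SYP, GNAO1 and CLSTN3, are shown. GNAO1 and CLSTN3 were chosen on their values and carry no test. SYP and GNAO1 followed each other across the libraries while CLSTN3 did not, and any link of this to the promoters was not tested. Each sequence is the 250 bases before the RefSeq transcription start of GRCh38.p14, 5′ to 3′ on the gene's strand. GC boxes (GGGCGG on either strand) and cAMP response elements (TGACGTCA) are in capitals. SYP is read from chrX:49200194-49200443 on the minus strand, GNAO1 from chr16:56191239-56191488 on the plus strand and CLSTN3 from chr12:7130121-7130370 on the plus strand.
SYP: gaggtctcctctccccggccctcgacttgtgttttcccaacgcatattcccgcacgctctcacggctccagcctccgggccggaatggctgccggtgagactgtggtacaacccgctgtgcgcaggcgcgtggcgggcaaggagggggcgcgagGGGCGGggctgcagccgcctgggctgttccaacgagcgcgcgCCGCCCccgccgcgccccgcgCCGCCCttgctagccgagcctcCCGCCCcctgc
GNAO1: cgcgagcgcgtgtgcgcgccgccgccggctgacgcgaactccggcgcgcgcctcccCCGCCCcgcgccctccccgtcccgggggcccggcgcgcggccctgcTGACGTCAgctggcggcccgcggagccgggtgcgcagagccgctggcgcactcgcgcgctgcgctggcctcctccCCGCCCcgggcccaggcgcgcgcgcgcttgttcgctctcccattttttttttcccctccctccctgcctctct
CLSTN3: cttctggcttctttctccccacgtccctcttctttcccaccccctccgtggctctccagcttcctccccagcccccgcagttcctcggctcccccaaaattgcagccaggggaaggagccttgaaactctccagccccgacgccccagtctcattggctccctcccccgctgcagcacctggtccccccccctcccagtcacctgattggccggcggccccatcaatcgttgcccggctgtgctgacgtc

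The SYP window was 74.0% G and C and held 4 GC boxes, at 96, 54, 33 and 11 bases before the start. GNAO1's was 79.2% G and C, with 2 GC boxes, at 194 and 73 bases, and a cAMP response element at 148 bases. The CLSTN3 window, at 66.0%, held neither motif in full, and its capitals are therefore absent. It ends in tgacgtc, the cAMP response element without its last letter, so an element across the window's edge would be missed. Of 35116 RefSeq promoters cut to the same length, 42.6% held a GC box and 1.65% a cAMP response element, and their median content of G and C was 58.0%. None of the 3 windows held a TATA box (TATAAA), an E-box (CACGTG), a heat shock element (GAANNTTC), a FOXO element (GTAAACA) or either part of the RE1 silencer element searched (TTCAGCACC and GGACAGCGC), on either strand. Those letters are found in 10.7%, 6.34%, 5.78%, 2.98%, 0.288% and 0.427% of all promoters. The motifs were chosen with results known, GENCODE 29 places the start of these genes further upstream, and a match describes letters only. CHGA's window also held a cAMP response element, at 54 bases, and a GC box, at 66 bases. That of ENO2 held 2 GC boxes, at 38 and 31 bases, and that of STX1A held 7. GC boxes were thus not particular to SYP and GNAO1, and of the matched windows only that of CLSTN3 held none. RefSeq promoters were matched for 6 of the 10 members.

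SYP, the vesicle membrane protein (ENSG00000102003.10, chrX:49187804-49200259, minus strand, hg38), had its lowest mean with STA9090+PIK75. It measured 22.9, 17.1 and 17.0 CPM with STA9090+PIK75, 31.8, 38.4 and 33.9 with STA9090+BGT226, 21.8, 31.3 and 35.5 with STA9090, 27.0, 28.3 and 26.5 with PIK75, 42.9, 40.9 and 41.4 with BGT226 and 44.0, 44.4 and 38.9 in untreated cells. All 3 STA9090+PIK75 libraries lay below every PIK75 library. Libraries with PIK75, with STA9090 and with STA9090+BGT226 all lay below every untreated library, and BGT226 libraries overlapped untreated ones. In order of their means the groups ran STA9090+PIK75, PIK75, STA9090, STA9090+BGT226, BGT226 and untreated. The neighbours PIK75 and STA9090, STA9090 and STA9090+BGT226, and BGT226 and untreated overlapped. STA9090+PIK75 and STA9090 overlapped too, through STA9090 replicate 1 at 21.8 CPM.

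In edgeR's quasi-likelihood test with Benjamini-Hochberg adjustment over all genes, SYP fell with STA9090+PIK75 by 1.17 on the log2 scale against untreated cells (SE 0.135, adjusted p = 1.09e-06). With PIK75 alone its log2 fold change was -0.64 (SE 0.131, adjusted p = 0.00163) and with BGT226 alone -0.03 (95% CI -0.29 to 0.24, adjusted p = 0.900). Falls from untreated cells are favoured by the choice of the list. STA9090+BGT226 gave -0.29, short of the threshold of 0.05 (adjusted p = 0.0743). That value passed it in the fit of the compared groups alone (adjusted p = 0.0189), with no filter beyond 1 count (adjusted p = 0.00661) and without untreated replicate 3 (adjusted p = 0.0436). STA9090 alone stood at -0.53 (SE 0.130), given with no test. Without STA9090 replicate 1, the lowest of its group, that description was -0.36.

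The pairs separated SYP further. With STA9090+PIK75 it was lower than with PIK75 (log2 fold change -0.53, SE 0.140, adjusted p = 0.00813), than with STA9090 (-0.64, SE 0.138, adjusted p = 0.00124) and than with STA9090+BGT226 (-0.88, SE 0.136, adjusted p = 2.8e-05). PIK75 alone was also below BGT226 alone (-0.61, SE 0.131, adjusted p = 0.00117). Neither STA9090+BGT226 against BGT226 (-0.27, adjusted p = 0.304) nor STA9090+BGT226 against STA9090 (0.24, adjusted p = 0.147) passed. The second did so without STA9090 replicate 3 (0.39, adjusted p = 0.0270), and the first with the compared groups alone (adjusted p = 0.0259). On the log2 scale the effect of STA9090+PIK75 on SYP differed from the sum of the single effects by 0.01 (95% CI -0.40 to 0.41, adjusted p = 0.990).

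GNAO1 (ENSG00000087258.15, chr16:56191347-56357457, plus strand), the Go alpha subunit, had its lowest level with STA9090+PIK75. It measured 11.2, 9.86 and 9.32 CPM with STA9090+PIK75, 21.7, 22.1 and 24.2 with STA9090+BGT226, 18.0, 18.4 and 21.8 with STA9090, 24.3, 19.4 and 23.8 with PIK75, 29.6, 29.7 and 31.2 with BGT226 and 31.6, 32.0 and 34.7 in untreated cells. STA9090+PIK75 libraries stood apart below all others, and STA9090, PIK75 and STA9090+BGT226 libraries overlapped in between. BGT226 libraries lay just below untreated ones without overlap. These levels correspond to a log2 fold change over untreated of -1.70 (SE 0.103) with STA9090+PIK75, -0.53 (SE 0.0933) with STA9090+BGT226, -0.76 (SE 0.0953) with STA9090, -0.54 (SE 0.0942) with PIK75 and -0.11 (SE 0.0914) with BGT226. They are descriptions, since the gene was chosen for its fall.

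GNAO1 resembled SYP more than any other member did, with Pearson r = 0.908 between their log2 CPM over the 18 libraries. The libraries share treatments, so this r describes group levels as much as single libraries. Its log2 fold change for STA9090+PIK75 over PIK75 was -1.15 (SE 0.106), over STA9090 -0.93 (SE 0.107) and over STA9090+BGT226 -1.17 (SE 0.105). Its departure from the sum of the single effects was -0.39 (SE 0.1432) with PIK75 and 0.35 (SE 0.1335) with BGT226, also as a description. STA9090+BGT226 over BGT226 stood at -0.41 (SE 0.0934), and at -0.48 without STA9090+BGT226 replicate 3. STA9090+BGT226 over STA9090 stood at 0.23 (SE 0.0973), and PIK75 over BGT226 at -0.43 (SE 0.0944).

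NCAM1 (ENSG00000149294.16, chr11:112961247-113278436, plus strand), the neural cell adhesion molecule known in the clinic as CD56, moved in both directions. It measured 79.5, 73.7 and 88.2 CPM with STA9090+PIK75, 127, 125 and 128 with STA9090+BGT226, 92.6, 83.9 and 87.9 with STA9090, 130, 123 and 128 with PIK75, 158, 142 and 152 with BGT226 and 121, 113 and 104 in untreated cells. Every BGT226 library was above every untreated library, and every STA9090+PIK75 library was below. The STA9090+PIK75 and STA9090 libraries overlapped, as did the PIK75 and STA9090+BGT226 libraries.

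NCAM1 rose with BGT226 by 0.42 on the log2 scale (SE 0.0754, adjusted p = 0.000299) and fell with STA9090+PIK75 by 0.49 (SE 0.0764, adjusted p = 4.46e-05). The choice of the list favours that fall from untreated cells. Values for PIK75 (0.18, adjusted p = 0.114) and STA9090+BGT226 (0.17, adjusted p = 0.0811) missed the threshold, and STA9090 alone stood at -0.35 (SE 0.0761), given with no test. Adding STA9090 to PIK75 lowered NCAM1 (STA9090+PIK75 over PIK75 -0.66, SE 0.0764, adjusted p = 2.77e-06), and adding BGT226 to STA9090 raised it (STA9090+BGT226 over STA9090 0.52, SE 0.0759, adjusted p = 1.71e-05). The second value has as its reference the STA9090 libraries on which the list was brought forward, which favours a rise. STA9090+PIK75 and STA9090 did not differ beyond the threshold (-0.13, 95% CI -0.29 to 0.03, adjusted p = 0.187). The pairs differed from each other by -0.65 for STA9090+PIK75 over STA9090+BGT226 (SE 0.0763, adjusted p = 8.59e-07).

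Some NCAM1 calls were close to the threshold. PIK75 over BGT226 stood at -0.25 (SE 0.0752, adjusted p = 0.0167), a call that ended with no filter beyond 1 count (adjusted p = 0.0540), without PIK75 replicate 2 (adjusted p = 0.0634), without BGT226 replicate 1 (adjusted p = 0.0748) and without BGT226 replicate 3 (adjusted p = 0.0521). STA9090+BGT226 over BGT226 was -0.25 (adjusted p = 0.0771), which passed in DESeq2 (adjusted p = 0.0106) and in the fit of the compared groups alone (adjusted p = 0.0140). The departure from additivity was -0.31 with PIK75 (95% CI -0.53 to -0.08, adjusted p = 0.0784), past the threshold in DESeq2 (adjusted p = 0.0411) and without STA9090+PIK75 replicate 3 (adjusted p = 0.0491). With BGT226 it was 0.10 (95% CI -0.12 to 0.32, adjusted p = 0.828). An antisense gene over NCAM1 exons, AP000802.1, held 22.7 counts on average against 1559 for NCAM1.

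CLSTN3 (ENSG00000139182.14, plus strand, chr12:7129698-7158945), calsyntenin 3, a postsynaptic adhesion protein that binds neurexins, was higher with both pairs than in untreated cells, where SYP and GNAO1 were lower with STA9090+PIK75. It measured 91.3, 103 and 100.3 CPM with STA9090+PIK75, 126, 109 and 108 with STA9090+BGT226, 46.4, 50.6 and 53.1 with STA9090, 62.2, 62.1 and 66.0 with PIK75, 76.2, 82.1 and 77.9 with BGT226 and 56.4, 60.04 and 58.2 in untreated cells. No group overlapped any other, and the order of levels ran STA9090, untreated, PIK75, BGT226, STA9090+PIK75 and STA9090+BGT226. Both pairs lay above their PI3K inhibitor alone, while STA9090 by itself lay below untreated cells.

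The CLSTN3 log2 fold change over untreated was 0.76 (SE 0.0738) with STA9090+PIK75, 0.98 (SE 0.0735) with STA9090+BGT226, -0.22 (SE 0.0752) with STA9090, 0.12 (SE 0.0746) with PIK75 and 0.44 (SE 0.0739) with BGT226. Adding STA9090 to PIK75 corresponded to 0.63 (SE 0.0736) and to BGT226 to 0.54 (SE 0.0724). The pairs stood above the sum of the single effects by 0.85 (SE 0.1052) with PIK75 and 0.76 (SE 0.1044) with BGT226. These are descriptions, since the gene was chosen on its changes in these libraries. STA9090+PIK75 over STA9090 stood at 0.98 (SE 0.0744) and STA9090+BGT226 over STA9090 at 1.20 (SE 0.0743). The pairs differed by -0.22 (SE 0.0720) and the single inhibitors, PIK75 over BGT226, by -0.31 (SE 0.0738). No other member had a positive departure of this size with both inhibitors.

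**Figure D2:**
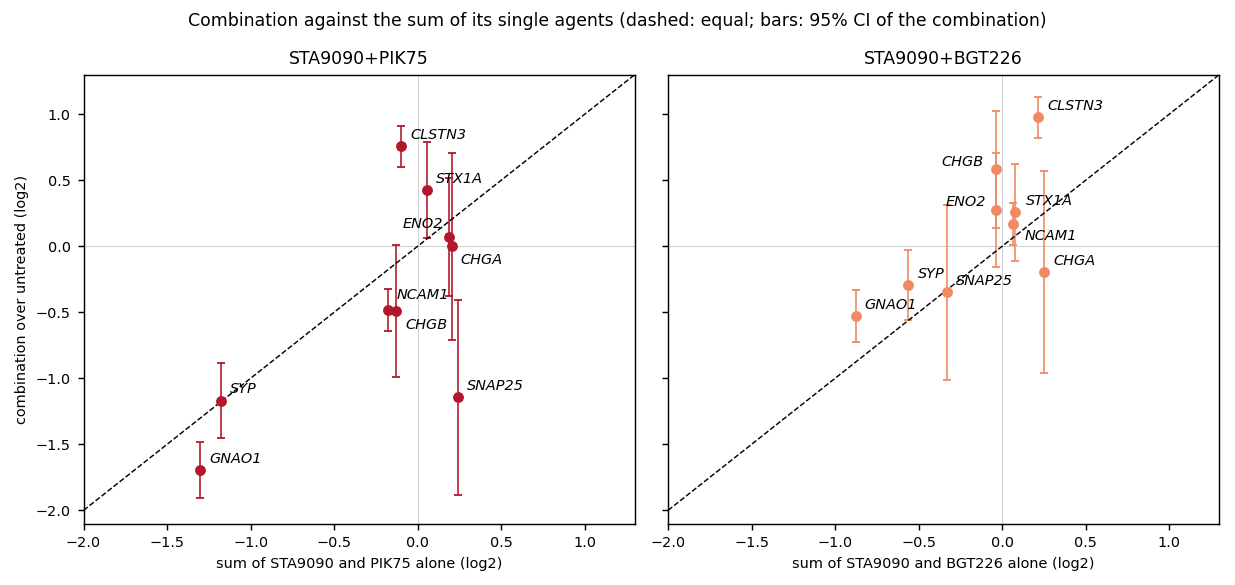
Log2 fold change of each pair over untreated (vertical axis, with its 95% CI) against the sum of the log2 fold changes of its single agents (horizontal axis), for the 9 fitted members, with a dashed line where both are equal. With STA9090+PIK75, SYP lies on the line, GNAO1 and SNAP25 are among the 6 members below it and CLSTN3 lies above it, and with STA9090+BGT226 CLSTN3 again lies above it. The intervals of CLSTN3 and GNAO1 are descriptions with no test, since both were chosen on their values.

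SNAP25 (ENSG00000132639.12, chr20:10218830-10307418, plus strand), the plasma membrane SNARE that is cut by botulinum toxin type A, was lowest with STA9090+PIK75. It measured 0.714, 0.515 and 1.63 CPM with STA9090+PIK75, 1.52, 2.34 and 1.24 with STA9090+BGT226, 2.22, 2.69 and 1.67 with STA9090, 2.73, 2.91 and 1.69 with PIK75, 1.68, 1.91 and 1.44 with BGT226 and 2.19, 1.96 and 2.28 in untreated cells. STA9090+PIK75 libraries lay below all libraries with STA9090, with PIK75 and from untreated cells, and replicate 3 overlapped both other groups.

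SNAP25 fell with STA9090+PIK75 by 1.14 on the log2 scale against untreated cells (SE 0.353, adjusted p = 0.0147), by 1.34 against PIK75 (SE 0.348, adjusted p = 0.00715) and by 1.19 against STA9090 (SE 0.351, adjusted p = 0.0114). Single libraries decided these calls. Without STA9090+PIK75 replicate 2 the 3 values were -0.83 (adjusted p = 0.0892), -1.03 (adjusted p = 0.0501) and -0.87 (adjusted p = 0.0739). The first also ended without STA9090+PIK75 replicate 1 (adjusted p = 0.0578) and the third without STA9090 replicate 2 (adjusted p = 0.0501). Without STA9090+PIK75 replicate 3, in contrast, the 3 values were -1.80, -1.996 and -1.84. The fall from untreated cells is also favoured by the choice of the list.

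PIK75 alone (0.20, adjusted p = 0.710), BGT226 alone (-0.37, adjusted p = 0.410) and STA9090+BGT226 (-0.35, adjusted p = 0.404) did not pass for SNAP25. STA9090+PIK75 over STA9090+BGT226 was -0.80 (adjusted p = 0.0833), and -1.44 (adjusted p = 0.00684) without STA9090+PIK75 replicate 3. The departure of STA9090+PIK75 from the sum of the single effects was -1.39 (95% CI -2.36 to -0.41, adjusted p = 0.0678). It passed with no filter beyond 1 count (adjusted p = 0.0271), without PIK75 replicate 3 (adjusted p = 0.0405) and without STA9090+PIK75 replicate 3 (-2.03, adjusted p = 0.0111).

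STX1A (ENSG00000106089.12, chr7:73699206-73719672, minus strand), syntaxin 1A, the SNARE partner of SNAP25 on the plasma membrane, had positive values over untreated cells in every group except STA9090. It measured 4.64, 3.90 and 4.22 CPM with STA9090+PIK75, 4.23, 3.85 and 3.31 with STA9090+BGT226, 2.41, 2.54 and 2.46 with STA9090, 4.72, 3.46 and 4.40 with PIK75, 3.75, 4.07 and 4.73 with BGT226 and 3.41, 2.57 and 3.55 in untreated cells. The STA9090 libraries were the lowest and the groups with a PI3K inhibitor overlapped one another. None of its changes from untreated cells that were tested passed. They were 0.43 (adjusted p = 0.0602) with STA9090+PIK75, 0.26 (adjusted p = 0.258) with STA9090+BGT226, 0.41 (adjusted p = 0.110) with PIK75 and 0.43 (adjusted p = 0.0689) with BGT226, beside -0.35 with STA9090, given with no test.

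Against STA9090, STX1A was higher with STA9090+PIK75 (0.78, SE 0.181, adjusted p = 0.00210) and with STA9090+BGT226 (0.61, SE 0.182, adjusted p = 0.0111). The list was brought forward as lower in these STA9090 libraries, which favours a rise over them, so both p-values are too favourable. Exons of STX1A overlap those of BUD23 on the opposite strand, which had 375.5 counts on average against 49.8 for STX1A. The libraries are stranded, but the strand setting used in counting is not given in the sources used here, so the STX1A values carry that uncertainty. BUD23 itself stood at 36.6 ± 2.54 CPM with STA9090+PIK75, 24.2 ± 1.11 with STA9090+BGT226 and 26.3 ± 2.92 with STA9090. It was higher with STA9090+PIK75 than with STA9090 (0.48, adjusted p = 0.000464) and not higher with STA9090+BGT226 (-0.12, adjusted p = 0.335).

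CHGB (ENSG00000089199.10, chr20:5911430-5925361, plus strand), secretogranin I, a granule cargo protein that is cut into peptides, separated the pairs. It measured 1.96, 1.40 and 2.07 CPM with STA9090+PIK75, 3.51, 3.92 and 3.96 with STA9090+BGT226, 2.60, 1.54 and 1.49 with STA9090, 2.88, 2.99 and 3.38 with PIK75, 2.96, 2.63 and 3.99 with BGT226 and 2.57, 2.37 and 2.71 in untreated cells. All STA9090+BGT226 libraries lay above all untreated, STA9090 and STA9090+PIK75 libraries. STA9090+PIK75 libraries lay below all untreated libraries and overlapped those with STA9090.

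CHGB was lower with STA9090+PIK75 than with STA9090+BGT226 (-1.07, SE 0.226, adjusted p = 0.000641) and than with PIK75 (-0.77, SE 0.235, adjusted p = 0.0207), and higher with STA9090+BGT226 than with STA9090 (0.98, SE 0.221, adjusted p = 0.00135). The last value has as its reference the STA9090 libraries on which the list was brought forward, which favours a rise. The comparison with PIK75 ended without PIK75 replicate 3 (adjusted p = 0.0663) and without STA9090+PIK75 replicate 2 (adjusted p = 0.104). Over untreated cells CHGB stood at 0.58 with STA9090+BGT226 (SE 0.213, adjusted p = 0.0350), a marginal call. It did not hold in DESeq2 (adjusted p = 0.0913), with no filter beyond 1 count (adjusted p = 0.0737), or without untreated replicate 1 (adjusted p = 0.0768), 2 (0.108) or 3 (0.0622) or STA9090+BGT226 replicate 2 (0.0837) or 3 (0.107). The other values over untreated were -0.49 with STA9090+PIK75 (adjusted p = 0.114), 0.27 with PIK75 (adjusted p = 0.434), 0.36 with BGT226 (adjusted p = 0.223) and -0.40 with STA9090, given with no test, or -0.75 without STA9090 replicate 1.

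CHGA and ENO2, among the stains most used for neuroendocrine tumours, passed the threshold in none of the 12 comparisons tested in edgeR or in DESeq2, and had an unadjusted p under 0.05 in 0 of them. CHGA (ENSG00000100604.13, chr14:92923080-92935293, plus strand), chromogranin A, which helps granules to form, averaged 0.987 ± 0.477 CPM with STA9090+PIK75, 0.860 ± 0.223 with STA9090+BGT226, 0.939 ± 0.228 with STA9090, 1.176 ± 0.140 with PIK75, 1.19 ± 0.240 with BGT226 and 0.965 ± 0.218 in untreated cells. Over all 13 comparisons its log2 values lay between -0.52 and 0.32, and over the 12 tested the lowest adjusted p was 0.500, with 95% CIs reaching from -1.50 to 1.04. Changes of that size were not detectable at its depth. ENO2 (ENSG00000111674.9, chr12:6913745-6923698, plus strand), the enolase of neurons, averaged 3.46 ± 0.854 CPM with STA9090+PIK75, 4.02 ± 0.261 with STA9090+BGT226, 3.42 ± 0.399 with STA9090, 3.72 ± 0.966 with PIK75, 3.19 ± 0.405 with BGT226 and 3.29 ± 0.679 in untreated cells. Its log2 values lay between -0.20 and 0.34, the 95% CIs reached from -0.75 to 0.93 and the lowest adjusted p was 0.308, although every STA9090+BGT226 library lay above all STA9090 and all BGT226 libraries.

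SCG2 (ENSG00000171951.5, chr2:223596940-223602503, minus strand), secretogranin II, was at the edge of detection. It had 2, 4 and 3 counts with STA9090+PIK75, 5, 0 and 0 with STA9090+BGT226, 4, 0 and 0 with STA9090, 2, 5 and 2 with PIK75, 3, 3 and 2 with BGT226 and 1, 0 and 0 in untreated cells. With at most 5 counts per library no fold change is given.

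**Figure D3:**
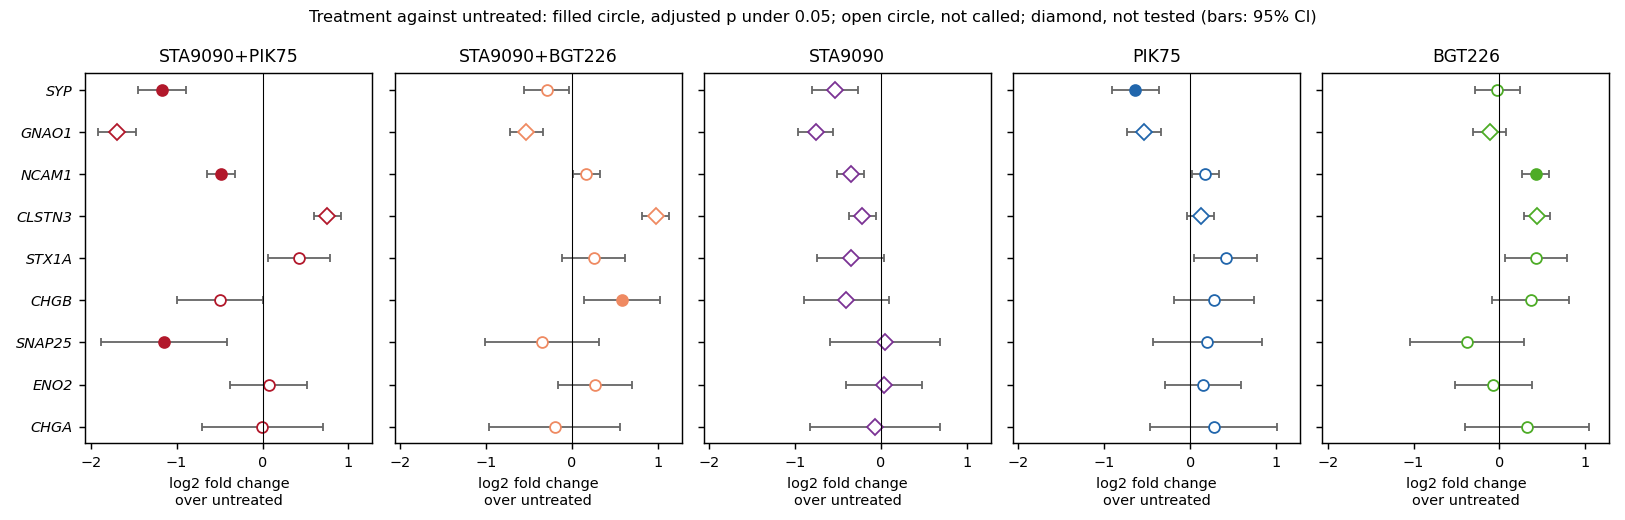
Log2 fold change over untreated for the 9 fitted members in each treated group, with 95% CIs. Filled circles mark adjusted p under 0.05, open circles values that missed it, and diamonds values given with no test. SYP, NCAM1 and SNAP25 are filled on the negative side with STA9090+PIK75, and CHGB (STA9090+BGT226) and NCAM1 (BGT226) on the positive side.

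The 7 measurable conventional markers are counted here beside the share of all genes called. With STA9090+PIK75, 3 of 7 fell and 0 rose (SYP, NCAM1, SNAP25), where 38.4% of the 15787 genes tested were called in either direction, and the median of the 7 was -0.49 beside 0.01 over all genes. Falls from untreated cells, and a negative median over them, are favoured by the choice of the list. STA9090+BGT226 gave 1 of 7, higher (CHGB), beside 39.8% of all genes. PIK75 gave 1, lower (SYP), beside 18.7%, and BGT226 gave 1, higher (NCAM1), beside 28.6%. With STA9090 alone 2.84% of all genes were called, and no count of members is given there because that contrast brought the list forward.

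Between treated groups, STA9090+PIK75 over PIK75 had 4 of 7 lower (SYP, NCAM1, SNAP25, CHGB) beside 25.3% of all genes, and 2 of 7 without STA9090+PIK75 replicate 2. STA9090+PIK75 over STA9090 had 1 higher (STX1A) and 2 lower (SYP, SNAP25) beside 37.5%, and STA9090+BGT226 over STA9090 had 3 higher (CHGB, NCAM1, STX1A) beside 40.4%. Rises over STA9090 are favoured by the choice of the list, which was brought forward as lower with STA9090. Directly compared, STA9090+PIK75 was below STA9090+BGT226 in 3 (SYP, NCAM1, CHGB) beside 43.3%, and PIK75 below BGT226 in 2 (SYP, NCAM1) beside 32.0%. STA9090+BGT226 over BGT226 had 0 of 7 in edgeR, beside 2.69% of all genes. There 1 had an unadjusted p under 0.05, DESeq2 called 1 and gave no adjusted p to 5, and edgeR on the compared groups alone called 2. The departure from additivity was called for 0 of 7 with PIK75 in edgeR, beside 9.27% of all genes, with 2 at an unadjusted p under 0.05 and 1 called in DESeq2, which gave no adjusted p to 2. With BGT226 it was called for 0 of 7 in edgeR and in DESeq2, which gave no adjusted p to 5, with 0 at an unadjusted p under 0.05, beside 0.00633% of all genes, which is 1 gene.

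The cortical markers moved in some of the same comparisons. All 11 measured of 13 adrenocortical genes were lower with STA9090+PIK75 (median log2 fold change -1.29), beside 38.4% of all genes called in either direction. Their summed level was 1044 to 1088 CPM with STA9090+PIK75 and 2183 to 2609 CPM in untreated cells. With PIK75 9 of the 11 were lower, beside 18.7% of all genes called, and the sum was 1359 to 1544 CPM. The sum with STA9090+BGT226 (2462 to 2674 CPM, 3 genes higher and 6 lower), with STA9090 (2122 to 2722 CPM, 1 higher) and with BGT226 (2093 to 2205 CPM, 3 higher and 5 lower) was near the untreated range. Of all genes, 39.8% were called with STA9090+BGT226, 2.84% with STA9090 and 28.6% with BGT226. SYP thus had its lowest level in the group where steroidogenic genes were also lowest, and whether one is linked to the other was not tested.

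Lists of other cell types gave these values for STA9090+PIK75, where 38.4% of all genes were called in either direction. Neuronal genes summed to 36.3 to 45.6 CPM with STA9090+PIK75 and 63.9 to 69.3 CPM in untreated cells (2 of 7 measured lower, NEFL and NEFM, 10 listed). The sums came mostly from NEFL and TUBB3, of which TUBB3 was not called (adjusted p = 0.0628), while ELAVL4 had no count. Chromaffin genes summed to 11.6 to 14.6 CPM with STA9090+PIK75 and 17.6 to 20.6 CPM in untreated cells (1 of 3 measured lower, 12 listed). Glial genes summed to 1.03 to 1.55 CPM with STA9090+PIK75 and 1.66 to 2.79 CPM in untreated cells (0 of 2 called in edgeR and in DESeq2, 1 at an unadjusted p under 0.05, 5 listed). Fibroblast, endothelial and leukocyte genes summed to 1.34 to 2.44 CPM with STA9090+PIK75 and 8.54 to 12.03 CPM in untreated cells (1 higher and 1 lower, COL1A1, of 2 measured, 9 listed), with CD3E and CDH5 at 0. With STA9090+BGT226 the neuronal sum was 32.9 to 36.3 CPM and with BGT226 37.3 to 38.2 CPM, also below untreated cells, although NCAM1 rose with BGT226. With STA9090 the neuronal sum was 54.4 to 63.7 CPM. With PIK75 it was 68.6 to 81.2 CPM, not below untreated cells. The part of these shifts in the members' values was not tested.

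Of 18 measured of 24 vesicle membrane genes, the group to which SYP belongs by role, 8 were lower, 0 higher and 10 not called with STA9090+PIK75, beside 38.4% of all genes called in either direction (median -0.34, where all genes had 0.01). RAB3B, a small GTPase on secretory vesicles, fell by 1.41 (SE 0.102, adjusted p = 1.94e-09) and SYT7, a slow calcium sensor for fusion, fell by 2.03 (adjusted p = 1.77e-07). The synaptophysin relative SYPL1 fell by 0.42 (adjusted p = 0.00170). STA9090+BGT226 had 7 lower and 0 higher beside 39.8% of all genes (median -0.19), with SYT7 at -0.79 (adjusted p = 0.00137) and RAB3B at -0.32 (adjusted p = 0.0149). The RAB3B call ended without STA9090+BGT226 replicate 1 (adjusted p = 0.0513). PIK75 alone had 4 lower and 1 higher beside 18.7%, with SYT7 at -1.45 (adjusted p = 2.36e-05) and RAB3B at -0.68 (adjusted p = 7.18e-05). BGT226 alone had 4 lower and 0 higher beside 28.6%. STA9090 alone had 1 lower beside 2.84%, RAB3B at -0.43 (adjusted p = 0.0261). That call ended with the compared groups alone (adjusted p = 0.195), without untreated replicate 1 (0.0741) or 3 (0.110), or STA9090 replicate 2 (0.0609) or 3 (0.0722).

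Fusion factors beside SNAP25 and STX1A did not move one way. Of 27 measured of 29 SNARE and fusion genes, 5 were higher and 8 lower with STA9090+PIK75 (38.4% of all genes called), 6 and 10 with STA9090+BGT226 (39.8%), 0 and 2 with STA9090 (2.84%), 2 and 5 with PIK75 (18.7%) and 4 and 6 with BGT226 (28.6%). CADPS, which primes dense-core granules for release, fell by 1.25 (adjusted p = 1.39e-08) with STA9090+PIK75, by 1.01 (adjusted p = 2.37e-07) with STA9090+BGT226 and by 0.49 (adjusted p = 0.0131) with STA9090. The last call ended with the compared groups alone (adjusted p = 0.119). The priming factor UNC13B fell by 0.87 (adjusted p = 2.48e-09) with STA9090+PIK75. NSF, the ATPase that takes SNARE complexes apart, fell by 0.77 (adjusted p = 5.61e-08) with STA9090+BGT226 and by 0.70 (adjusted p = 4.07e-07) with BGT226. SNAP23, the widely expressed relative of SNAP25, stood at 0.29 with STA9090+PIK75 (adjusted p = 0.0401), opposite to SNAP25. This was past the threshold in the main model but not in DESeq2 (adjusted p = 0.0618), with no filter beyond 1 count (0.0813) or with the 50 most counted genes left out (0.0523). It also missed it without untreated replicate 1 (0.0843), 2 (0.101) or 3 (0.0833) and without STA9090+PIK75 replicate 1 (0.163) or 2 (0.0654).

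Granule genes beside the chromogranins were sparse in this line, with 7 measured of 14. With STA9090+PIK75 4 were lower and 1 higher, beside 38.4% of all genes called (median -0.58). PTPRN, a membrane protein of dense-core granules, fell by 0.99 (adjusted p = 1.21e-05), PAM, which amidates peptide hormones, by 0.86 (adjusted p = 8.01e-08) and VGF, a granin-like precursor, by 0.79 (adjusted p = 4.38e-05). VGF rose by 0.43 with STA9090+BGT226 (adjusted p = 0.00904) and by 0.58 with BGT226 (adjusted p = 0.00130). Thus VGF, like CHGB, was negative with STA9090+PIK75 and positive with STA9090+BGT226, although CHGB's own value over untreated missed the threshold with STA9090+PIK75. The VGF call with STA9090+BGT226 ended without replicate 2 of that group (adjusted p = 0.0515). STA9090+BGT226 had 2 higher and 1 lower (39.8% of all genes called), PIK75 0 and 2 (18.7%) and BGT226 1 and 0 (28.6%). STA9090 had 0 and 1 (2.84%), VGF at -0.54 (adjusted p = 0.0240). That call ended with the compared groups alone (adjusted p = 0.147), without untreated replicate 2 (0.0606) or 3 (0.0769) or without STA9090 replicate 1 (0.0910).

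**Figure D4:**
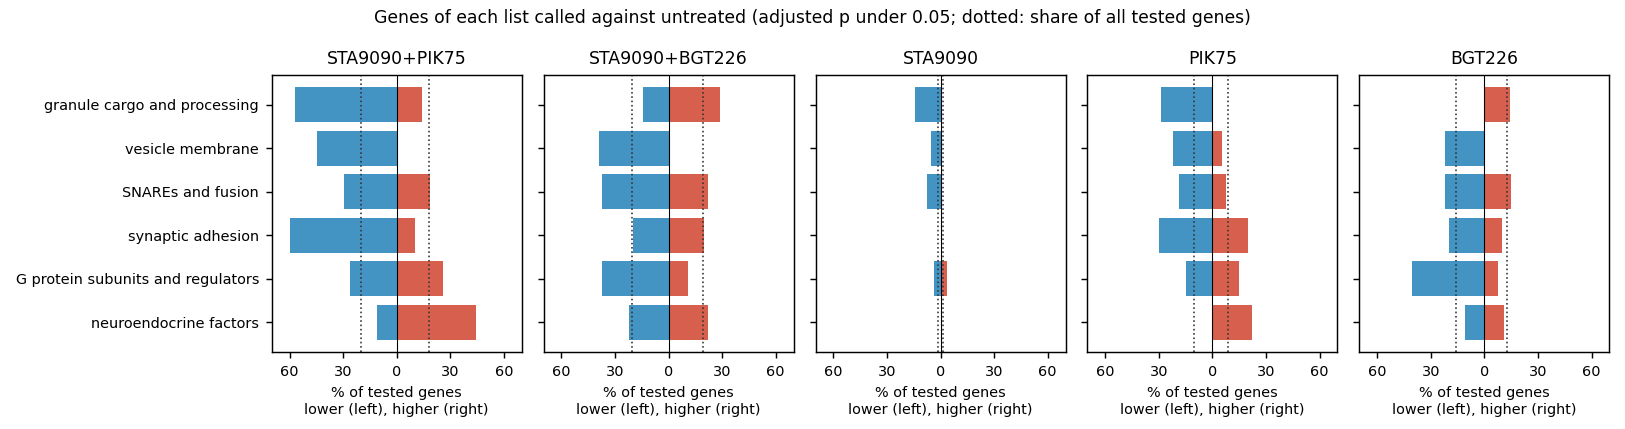
Share of the measured genes of 6 lists that were lower (left, blue) or higher (right, red) than untreated at adjusted p under 0.05, with dotted lines at the shares over all genes tested. With STA9090+PIK75 the bars of every list shown except the neuroendocrine factors reach past the dotted line on the lower side. On the higher side the bars of the G protein genes, the SNARE and fusion genes and the neuroendocrine factors also reach past it. The lists are short, so a few genes shift a bar.

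The calsyntenin relatives of CLSTN3 had other values, a difference that was not tested. CLSTN1, which links cargo to kinesin for axonal transport, averaged 62.1 ± 4.95 CPM with STA9090+PIK75 and 132 ± 1.56 CPM in untreated cells. It fell by 1.08 with STA9090+PIK75 (adjusted p = 1.52e-09) and by 0.51 with PIK75 (adjusted p = 7.41e-05). CLSTN2 rose by 1.33 with PIK75 (adjusted p = 0.000117) and fell by 1.12 with STA9090+BGT226 (adjusted p = 0.00150) and by 0.996 with BGT226 (adjusted p = 0.00481). Among 10 measured of 15 synaptic adhesion genes, 1 was higher and 6 lower with STA9090+PIK75, beside 38.4% of all genes called (median -0.38), including APLP1, a relative of the amyloid precursor protein, which fell by 0.77 (adjusted p = 1.28e-06). The counts were 2 higher and 2 lower with STA9090+BGT226 (39.8% of all genes called), 2 and 3 with PIK75 (18.7%) and 1 and 2 with BGT226 (28.6%). STA9090 had 0 of 10 in edgeR (2.84%), with 4 at an unadjusted p under 0.05 and 1 called in DESeq2, which gave no adjusted p to 3.

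G protein genes beside GNAO1, 27 measured of 33, had 7 higher and 7 lower with STA9090+PIK75, beside 38.4% of all genes called (median -0.12). GNAZ, an inhibitory alpha subunit of the same family, fell by 0.92 with STA9090+PIK75 (adjusted p = 1.94e-09) and by 0.93 with STA9090+BGT226 (adjusted p = 2.76e-09). The beta subunit GNB5 fell by 0.70 with STA9090+PIK75 (adjusted p = 1.21e-05), by 0.93 with STA9090+BGT226 (adjusted p = 4.75e-07) and by 0.66 with BGT226 (adjusted p = 3.78e-05). GNG5, a gamma subunit, fell by 0.88 with STA9090+BGT226 (adjusted p = 1.29e-07). With STA9090+BGT226 3 were higher and 10 lower (39.8% of all genes called) and with BGT226 2 and 11 (28.6%), while PIK75 had 4 and 4 (18.7%) and STA9090 1 and 1 (2.84%), where the lower gene was GNAZ at -0.31 (adjusted p = 0.0168). That call ended with the compared groups alone (adjusted p = 0.150), without untreated replicate 1 (0.0572) and without STA9090 replicate 1 (0.0605).

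Transcription factors and other genes used to define neuroendocrine cells were mostly too low to test, with 9 measured of 24. STA9090+PIK75 had 4 higher and 1 lower, beside 38.4% of all genes called (median 0.35). PROX1, a homeobox factor, rose by 0.56 with STA9090+PIK75 (adjusted p = 8.56e-05), by 1.04 with STA9090+BGT226 (adjusted p = 4.05e-08) and by 0.77 with BGT226 (adjusted p = 3.89e-06). POU3F2 rose by 1.01 with STA9090+PIK75 (adjusted p = 0.000315) and by 0.75 with PIK75 (adjusted p = 0.0106). Without untreated replicate 2 the value for PIK75 missed the threshold (adjusted p = 0.0633). The zinc finger factor MYT1 fell by 1.63 with STA9090+PIK75 (adjusted p = 0.000286). STA9090+BGT226 had 2 higher and 2 lower (39.8% of all genes called), PIK75 2 and 0 (18.7%), BGT226 1 and 1 (28.6%), and STA9090 0 and 0 in edgeR (2.84%), with 2 at an unadjusted p under 0.05 and 0 called in DESeq2, which gave no adjusted p to 7. Of the other enolases, ENO1, the widely expressed form, fell by 0.79 with STA9090+BGT226 (adjusted p = 4.75e-05) and by 0.68 with BGT226 (adjusted p = 0.000410), and stood at 0.14 with STA9090+PIK75 (adjusted p = 0.401), or at 0.31 without untreated replicate 2 (adjusted p = 0.0407). ENO3, the muscle form, rose by 1.20 with STA9090+PIK75 (adjusted p = 6.22e-06) and by 0.73 with STA9090 (adjusted p = 0.0221), and fell by 0.54 with BGT226 (adjusted p = 0.0308). The STA9090 call ended with the compared groups alone (adjusted p = 0.150), without untreated replicate 1 (0.0727) or 3 (0.0882) and without STA9090 replicate 3 (0.0548). The BGT226 call ended with the compared groups alone (adjusted p = 0.0573), in DESeq2 (0.0503), without untreated replicate 2 (-0.33, adjusted p = 0.230) and without BGT226 replicate 1 (0.0927), 2 (0.0573) or 3 (0.0622). Their difference from ENO2 was not tested.

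Among the 10447 genes with a mean of at least 5 CPM, the profiles most like SYP, GNAO1, CLSTN3, STX1A and ENO2 over the 18 libraries were found by Pearson r of log2 CPM, given as a description of libraries that share treatments. SYP was most like FGFRL1 (r = 0.937), NUMA1 (0.934) and DBP (0.933). GNAO1 was most like EFNB1 (0.979), ATN1 (0.962) and DBP (0.961), so DBP was near both. CLSTN3 was most like DUSP5 (0.953), NAB2 (0.947) and AL133367.1 (0.936). STX1A was most like CHKB (0.880), VGLL4 (0.878) and AC006001.3 (0.871). ENO2 had no profile as near, the highest r being 0.628 with MKRN3, then 0.600 with AJUBA and 0.599 with AL691432.2. Between members, the next highest r after SYP with GNAO1 was 0.829 between CHGB and NCAM1, and that of SNAP25 with CLSTN3 was -0.563.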

How the data were processed

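RNA was sequenced as stranded, ribosomal RNA-depleted paired-end libraries, per the labels' protocols. The authors deposited expected counts per gene, not normalized, for each of the 18 libraries. Per the submitters' processing notes the tools included STAR 2.7.0f and RSEM 1.3.1, and the build was hg38. Which annotation release and strand setting served for counting is not stated, so reads shared with antisense genes may be divided in unknown ways.

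Counts were rounded (a library total changed by at most 0.000381%), filtered with filterByExpr (minimum count 10, minimum total 15), scaled by TMM (factors 0.903 to 1.13) and fitted in edgeR 4.0.16 (R 4.3.3) with a mean for each of the 6 groups and no covariate. Differences were tested by the quasi-likelihood F-test with Benjamini-Hochberg adjustment over 15787 genes and a threshold of 0.05. Fitted log2 fold changes (prior count 0.125) were divided by the root of F to give the SE. In all, 13 comparisons were made, namely each treatment against untreated, each pair against its parts, PIK75 against BGT226, the pairs against each other, and 2 interactions. CPM were computed with the TMM factors. Precision is limited by 10.2 to 21.1 M counts per library.

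Gene positions and exon lengths came from GENCODE 29, which holds 99.54% of the IDs when versions are ignored, and promoters from RefSeq (GRCh38.p14). A gene counted as called had adjusted p under 0.05. Beside the members, 7 lists of related genes and 5 of cell type markers (some genes stand in more than 1) were described by counts and medians. From each related list the 3 measured genes with the smallest adjusted p in any comparison with untreated cells, and 9 paralogs where measured, could be named, and part of them is. Members and lists were chosen with earlier results of these data known, and the planned count of members called with STA9090 against untreated is not given because that contrast led to the list.

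As alternatives, DESeq2 1.42.0, RLE scaling, a fit of the compared groups alone and a replicate block were tried, as were no filter beyond 1 count, a filter of 1 CPM in 3 libraries, removal of the 50 most counted genes and removal of each library in turn. No library was left out of the main fit.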

Additional observations from a re-analysis of the deposited data

Results flagged for a closer look

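CLSTN3 was flagged because its libraries moved in opposite directions with STA9090 depending on what else was given. All 3 STA9090 libraries lay below all 3 untreated libraries (log2 fold change -0.22), while all STA9090+PIK75 libraries lay above all PIK75 libraries (0.63) and all STA9090+BGT226 libraries lay above all BGT226 libraries (0.54). The effect of STA9090 on CLSTN3 was 0.85 higher on the log2 scale with PIK75 than without it, and 0.76 higher with BGT226 than without it. The difference was not tested, because earlier results of these libraries led to the choice of the gene.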

How the results depend on the processing

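Of 1664 values recomputed for 124 results, 1584 kept their direction and their side of the threshold, 58 lost a call, 14 gained one, 2 moved by over the replicate spread and 6 changed sign, none of them past the threshold. RLE size factors, the stricter filter and the replicate block changed none of the 124. Replicate numbers did not pair the libraries (r of same-numbered deviations -0.17 to 0.15, over 0.1 in 2 of 45 pairs), and with the block 368 genes were called with STA9090, against 448. Sign changes touched SYP with BGT226 over untreated (-0.0888 to 0.00539 with single libraries left out) and its interaction of STA9090 with PIK75 (-0.17 to 0.15).

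The number of 7 markers called moved as follows. With the compared groups alone it was 2 for STA9090+BGT226 over untreated (1 with all groups) and 2 for STA9090+BGT226 over BGT226 (0). DESeq2 called 0 for STA9090+BGT226 over untreated, 1 for STA9090+BGT226 over BGT226 and 1 for the interaction with PIK75 (0). With no filter beyond 1 count, 1 was called for PIK75 over BGT226 (2) and 1 for the interaction with PIK75. With single libraries left out the counts ran from 0 to 1 for STA9090+BGT226 over untreated, from 2 to 4 for STA9090+PIK75 over PIK75, from 1 to 2 for PIK75 over BGT226 and from 0 to 2 for the interaction with PIK75. The cause was not tested, beyond the smaller number of libraries that leaving some out leaves by construction.

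Counts over all genes that moved by over 1.5 times were those for STA9090 (448, 769 with no low filter, 4 with the compared groups alone, 116 to 488 with libraries left out), STA9090+BGT226 over BGT226 (424, 827, 1334, 134 to 242), the interaction with PIK75 (1463, 809 with the compared groups alone) and that with BGT226 (1, 269 with no low filter, 35 in DESeq2, 0 to 6 with libraries left out). Depth limits CHGA, SNAP25, CHGB, ENO2 and STX1A, and SCG2 could not be fitted.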
